A study of Mus musculus with 24 samples.

Results

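Dendritic cells of the strains PWD and C57 were compared after LPS across all genes of the TPM table, with the 4 PWD_LPS libraries set against the 4 C57_LPS libraries, 8 of the 24 libraries of the series. The cells were bone marrow-derived dendritic cells (BMDCs), grown from mouse marrow for 7 days with the growth factor GM-CSF and then given LPS of E. coli 0111:B4 at 10 ng/ml for 6 hours. Each library came from an independent culture of 1 mouse, with 4 mice per strain, and the ages of the mice were not given in the sources used here. The inbred strain PWD descends from wild mice of the subspecies Mus musculus musculus. The other strain is labelled C57, and the sources used here do not say how it differs from B6, the remaining strain of the series. Each strain also has 4 untreated libraries with the same replicate numbers, which are used below to show how the strains differed without LPS. The series, by its title, asks how natural variation in wild-derived mice bears on the transcriptional response to endotoxin.

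LPS, the endotoxin of Gram-negative bacteria, is bound by Cd14 and recognised by Tlr4. The adaptor Myd88 then leads to NF-kB and to inflammatory cytokines, whereas the adaptor Ticam1 leads to interferon beta, which acts back on the cells through its receptor and factors such as Stat2 and Irf9 to induce the interferon-stimulated genes. Dendritic cells add to this the display of antigen on MHC molecules, co-stimulatory ligands for T cells, and migration to lymph nodes through Ccr7.

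Values are TPM, transcript levels per length that sum to 1000000 in each library. Of the 13246 genes tested, limma on log2(TPM + 1) called 7179 different between the strains after LPS at a Benjamini-Hochberg adjusted p under 0.05, which is 54.2%. PWD was higher for 3236 genes (24.4%) and lower for 3943 (29.8%), and these shares are the background against which the counts in each gene list below should be read. The log2 difference, PWD minus C57, had a median of -0.05 over all genes tested and lay between -0.38 and 0.30 for the middle part of them, between the quartiles. Differences of 1 or more on the log2 scale in called genes numbered 995 upward and 935 downward. For 6762 genes (51%) the 4 PWD libraries and the 4 C57 libraries did not overlap, with PWD higher for 22.7% of all genes tested and lower for 28.4%. Because 1 TPM is added before the logarithm, a strain difference in 1 condition understates that of genes at a few TPM or less, and a change of that difference with LPS can come out larger or smaller.

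The libraries of 1 group correlated with r of 0.982 to 0.988 in PWD_LPS and 0.984 to 0.990 in C57_LPS across genes. Noncoding structural RNA, such as 7SL, 7SK and the rRNA of mitochondria, amounted to 36.3% to 39.1% of TPM in PWD_LPS, but in C57_LPS it was higher in mice 1 and 2, at up to 41.2%, than in mice 3 and 4, at 31.6% and 33.4%. The libraries numbered 1 and 2 of each group expressed the Y-linked Ddx3y and those numbered 3 and 4 expressed Xist, so both sexes were in every group. With mice 1 and 2 alone, 6281 genes were called, 3467 of them higher in PWD, and with mice 3 and 4 alone 6609, of which 2327 were higher, so the balance between the directions differed between the pairs of mice while the directions of the called genes named below did not. Pseudogenes took 3.48% to 3.96% of TPM in PWD_LPS and 1.44% to 1.63% in C57_LPS. Reads of both strains were set against mm10, the C57BL/6J genome, so that a gene whose PWD sequence or copy number departs from it can be measured low or be credited to a relative; the part of this in any single difference was not tested.

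The dendritic cell markers were present in both strains. Itgax, which encodes CD11c, stood at 304, 324, 314 and 353 TPM in PWD and 219, 206, 273 and 279 TPM in C57, Zbtb46 at 4.9 to 7.24 and 6.23 to 8 TPM, and Cd74 at 2392 to 3706 and 1613 to 1899 TPM. Of 16 conventional dendritic cell markers, 14 passed the filter of 1 TPM in 4 libraries, 5 of them higher in PWD, 6 lower and 3 not called, and the 2 that did not pass were Flt3, at most 0.709 TPM in any of the 8 libraries, and Xcr1, at most 0.158 TPM. Among those lower in PWD were Dpp4 (-2.01), Irf8 (-1.47) and Kmo (-1.40), and among those higher Ciita (0.81), Batf3 (0.69), Cd24a (0.68) and Itgax (0.42). Of the macrophage and monocyte markers, 14 of 19 tested were lower in PWD and 3 higher, with a median of -1.38, and their summed level was 6130 to 6613 TPM in PWD and 8839 to 12213 TPM in C57. In bulk libraries such as these, fewer cells of a type and less RNA per cell cannot be told apart.

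**Figure D1:**
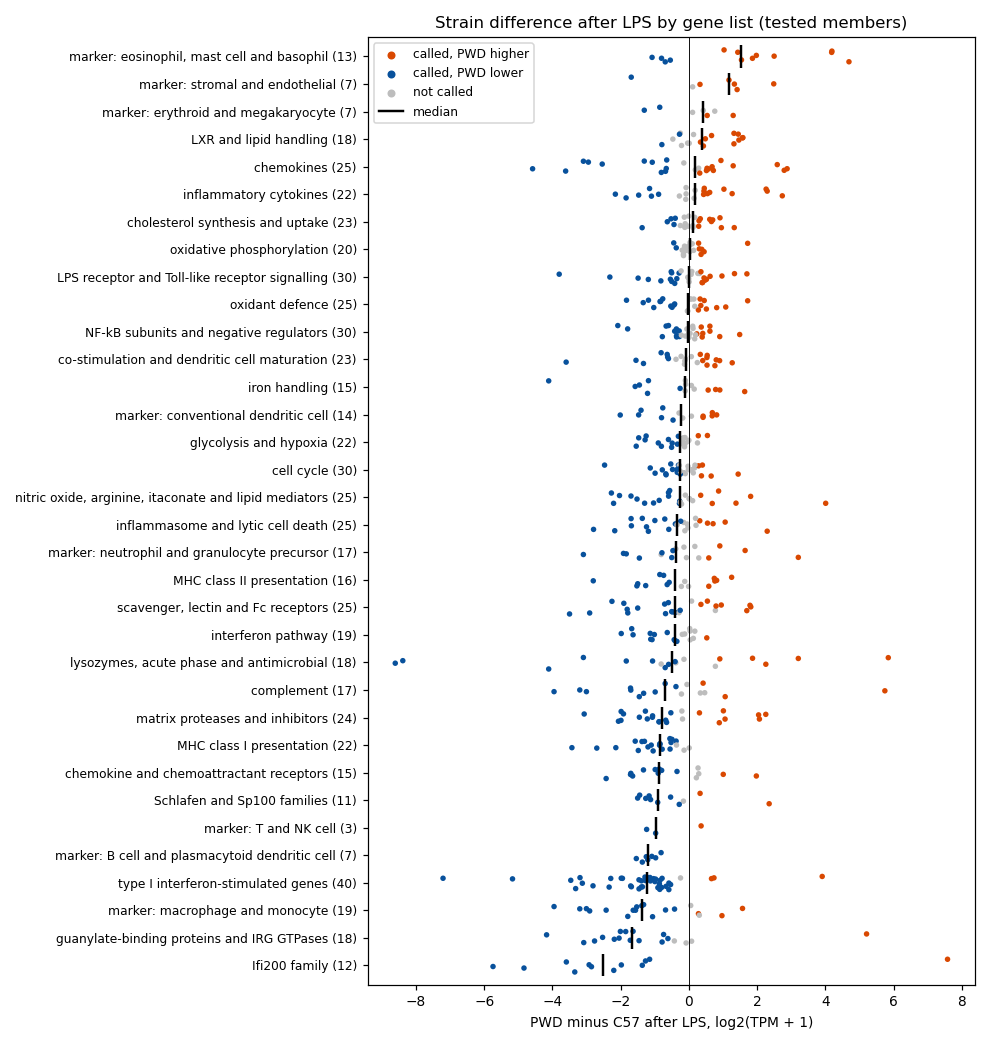
Log2 difference between PWD and C57 after LPS, on the scale log2(TPM + 1), for the tested members of each gene list, with the number tested in brackets. Each point is a gene, coloured by call, and the black bar is the list's median. The Ifi200 family (median -2.53), the guanylate-binding proteins (-1.68), the macrophage markers (-1.38) and the interferon-stimulated genes (-1.24) lie to the left, and the eosinophil, mast cell and basophil markers (1.54) to the right.

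Inflammatory cytokines did not move as a block. Of 22 tested, 10 were higher in PWD, 6 lower and 6 not called, with a median of 0.17 that turned to -0.08 with a filter of 5 TPM. The subunits of the IL-12 family parted. Il12b, which encodes p40, a subunit of both IL-12 and IL-23, and lies at chr11:44400063-44414033 (mm10), stood at 833, 1073, 1222 and 1298 TPM in PWD and at 205, 189, 233 and 291 TPM in C57. Every PWD library was above every C57 library, and the log2 difference was 2.26 (SE 0.23, adjusted p = 2.88e-08 by limma), a ratio of means of 4.81. Il23a, the p19 subunit that pairs with p40 to make IL-23 (chr10:128296139-128298752), was at 43.6, 42.4, 52.9 and 56.6 TPM in PWD against 5.52, 6.32, 6.66 and 7.34 TPM in C57, with no overlap and a log2 difference of 2.74 (SE 0.15, adjusted p = 7.52e-15). The other partner of p40 went the opposite way. Il12a, the p35 subunit specific to IL-12, was lower in PWD at 0.993, 1.29, 1.71 and 1.98 TPM than in C57 at 4.29, 6.04, 6.35 and 6.98 TPM (log2 difference -1.47). Il27, the p28 subunit of IL-27, was at 6.1, 6.96, 8.01 and 7.58 TPM in PWD and 35.2, 33.7, 39.6 and 32.8 TPM in C57 (log2 difference -2.16), while its partner subunit Ebi3 was higher in PWD by 0.45. All 5 of these genes had no overlap between the strains.

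**Figure D2:**
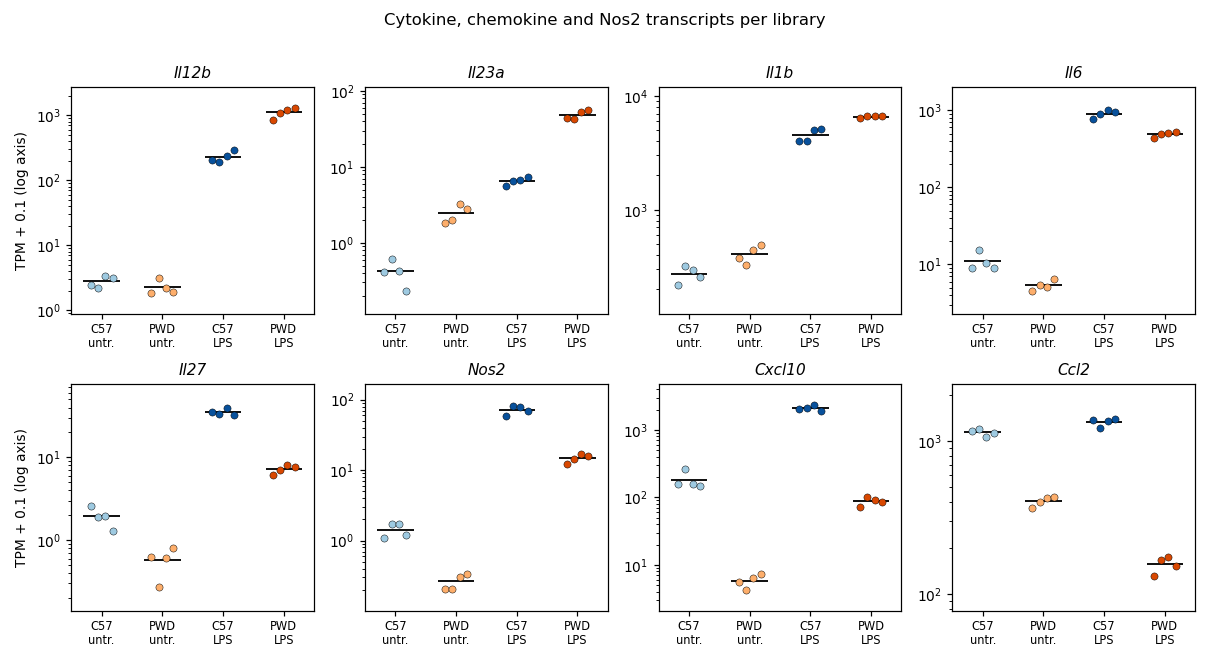
TPM plus 0.1 on a log axis in the 4 C57 and 4 PWD libraries without treatment (untr.) and after LPS, for 8 transcripts, with each point a library and each bar a group mean. After LPS the PWD points lie above all C57 points for Il12b, Il23a and Il1b and below all of them for Il6, Il27, Nos2, Cxcl10 and Ccl2.

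Of the IL-1 family, Il1b was the most abundant cytokine of the list and stood at 6371, 6705, 6609 and 6688 TPM in PWD and 4060, 3992, 5000 and 5152 TPM in C57, a log2 difference of 0.54 (SE 0.13, adjusted p = 0.000872) without overlap. Il18, a relative that like Il1b is cut to its active form by caspase-1, was at 33.8 to 52.5 TPM in PWD and 6.29 to 10.4 TPM in C57 (log2 difference 2.29). The receptor antagonist Il1rn was also higher in PWD (0.43), as was Il33 (1.27) at 3.47 to 4.7 TPM. Tnf, an early cytokine of endotoxic shock, stood at 585, 695, 680.0 and 694 TPM in PWD and 635, 638, 758 and 808 TPM in C57. These libraries overlapped, and the log2 difference of -0.09 (SE 0.12) was not called (adjusted p = 0.522). Il6 was lower in PWD, with 438, 494, 506 and 520.1 TPM against 783, 887, 1013 and 953 TPM, no overlap and a log2 difference of -0.89 (SE 0.17, adjusted p = 7.52e-05). The anti-inflammatory Il10 was at 4.07 to 4.49 TPM in PWD and 3.27 to 4.57 TPM in C57 and was not called (adjusted p = 0.397). Il15, which sustains NK and memory T cells, was lower in PWD (6.81 ± 0.944 against 27 ± 3.82 TPM, mean ± SD, n = 4 each), as were Csf1, the macrophage growth factor (-1.15), and Osm (-1.10). Tnfsf9, the ligand of the co-stimulatory receptor 4-1BB, was higher (1.03).

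Chemokines split evenly, with 11 of 25 higher in PWD, 11 lower and 3 not called, and a median of 0.19; with mice 1 and 2 alone 7 were higher and 11 lower. The members lower in PWD were led by ligands of Cxcr3 and Ccr2. Cxcl10, which attracts Cxcr3-bearing T cells (chr5:92346638-92348889), was at 72.9, 101, 91.8 and 84 TPM in PWD and at 2054, 2113, 2313 and 1932 TPM in C57. Its log2 difference was -4.58 (SE 0.17, adjusted p = 4.08e-17), and the groups were far from overlapping. Ccl2, the main monocyte attractant (chr11:82035571-82037453), stood at 131, 166, 174 and 153 TPM in PWD and 1379, 1211, 1343 and 1393 TPM in C57 (log2 difference -3.09). Its neighbour Ccl7 (chr11:82045712-82047525) was at 34.5, 43.8, 41.6 and 38.2 TPM against 510.0, 446, 496 and 523 TPM (-3.61), and Ccl12 at 0 to 1.3 TPM against 6.2 to 8.18 TPM (-2.54). These neighbours share a cluster on chromosome 11 and all were lower in PWD in every library, as was Ccl1 (-2.95). The neutrophil attractant Cxcl3, among the most abundant transcripts of the list, was higher in PWD, at 5970, 6426, 6161 and 6162 TPM against 3132, 2907, 3407 and 3480 TPM (0.94). Higher too were the Ccr6 ligand Ccl20, at 5.41, 5.12, 9.87 and 9.09 TPM against 0.192, 0.0918, 0 and 0.132 TPM, the eosinophil attractant Ccl24, at 16.4 to 25.2 against 1.23 to 3.37 TPM, and Cxcl14, at 7.76 to 10.4 against 0.437 to 1.02 TPM. Ccl4 was lower (-0.65), whereas Ccl3, at 2297 to 2862 TPM in PWD and 2168 to 2409 TPM in C57, and Ccl5, at 686 to 984 and 646 to 828 TPM, were not called (adjusted p = 0.109 and 0.183).

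Receptors for chemoattractants were lower in PWD for 10 of 15 tested members and higher for 2, with a median of -0.87; the count of higher members was 4 without C57_LPS replicate 4 and 5 with median-of-ratios scaling, with 10 lower in both cases. Ccr2, the receptor of Ccl2, Ccl7 and Ccl12, was at 11.1, 14.3, 12.7 and 10.8 TPM in PWD and 72.9, 62.7, 74.1 and 69.6 TPM in C57, a log2 difference of -2.43 (SE 0.12, adjusted p = 6.8e-16) with no overlap, and the transcripts of this receptor and of these ligands were all lower. Ccr1 was at 46.5 to 51.4 against 144 to 175 TPM, and Ccr7, the lymph node homing receptor, at 54.6, 67.9, 59.5 and 62 against 144, 199.8, 144 and 137 TPM (-1.33). The receptors for complement fragments and leukotriene B4 were lower as well: C3ar1 (-1.71), C5ar1 (-0.99) and Ltb4r1 (-1.70). The eotaxin receptor Ccr3 was the member most above C57 (1.98), at 3.45 to 6.06 TPM.

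A broad difference lay in the interferon system. Ifnb1, the gene of interferon beta (chr4:88522025-88522774), was at 0.298, 0.646, 1.05 and 0.48 TPM in PWD and 5.3, 5.54, 6.08 and 4.43 TPM in C57. No library overlapped, and the log2 difference was -1.98 (SE 0.22, adjusted p = 1.92e-08), or -3.02 with 0.1 TPM added in place of 1. Of 19 tested genes of the interferon pathway, 11 were lower in PWD, 1 higher and 7 not called, a called share of 63.2% that is not far from the 54.2% of all genes. Lower members were the transcription factors Irf7 (-1.68), Stat2 (-1.13), Irf1 (-1.12) and Irf9 (-0.43) and the feedback inhibitor Socs1 (-1.64). The receptor chain Ifnar1 was the member higher in PWD (0.52), at 97.8 to 118 TPM against 63.9 to 85.5 TPM.

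Type I interferon-stimulated genes were lower in PWD for 36 of 40 tested, or 90% against 29.8% of all genes, with a median log2 difference of -1.24; 3 were higher and 1 was not called. This held within mice 1 and 2 (35 lower, 3 higher) and within mice 3 and 4 (36 lower, 3 higher). Ifit3, whose protein acts with its relatives against viral RNA, stood at 6.13, 7.64, 9.54 and 7.91 TPM in PWD and 287, 324, 337 and 305 TPM in C57 (-5.17, SE 0.16, adjusted p = 8.76e-20), and summed with its near-identical neighbour Ifit3b it was at 19.5 to 29.5 TPM against 327.8 to 387.5 TPM. Rsad2, the antiviral enzyme viperin, was at 85.9, 131, 132 and 113 TPM against 1062, 1243, 1199 and 1084 TPM (-3.32), and its neighbour Cmpk2 at 58 to 84.3 against 469 to 549 TPM (-2.81). Among the others were Ifit2 (-3.46), Oas1a (-3.19), Isg20 (-2.34), Ifit1 (-2.29), Usp18 (-1.98), Oasl2 (-1.46) and Ifi35 (-1.13). Isg15, the ubiquitin-like modifier, was nearer to parity, at 310.0, 441, 451 and 399 TPM in PWD and 773, 813, 847 and 821 TPM in C57 (-1.04, adjusted p = 1.29e-05). The genes of the Mx family did not follow. Mx1 was at 169, 236, 241 and 219 TPM against 230.3, 274, 267 and 248 TPM and was not called (adjusted p = 0.233), and Mx2 was higher in PWD, at 66.4, 101, 93.6 and 81.5 TPM against 46.8, 51.7, 51 and 52.3 TPM (0.73, adjusted p = 0.00038). Ifi44 was higher as well (0.66), and its neighbour Ifi44l was at 10.5, 16.4, 15.5 and 14.2 TPM in PWD and listed at 0 in all C57 libraries.

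The promoters of 5 genes lower in PWD are shown with those of Gbp5, which was not called, and Gbp2b, which was higher, because all hold the sequence GAAANNGAAA, the core of the interferon-stimulated response element. Sequences are those of the C57BL/6J reference from RefSeq, build GRCm38.p6, read 5′ to 3′ on the gene's strand, from 20 bases before the first match to the base before the annotated start. Capitals mark the matches on either strand, where TTTCNNTTTC is a match on the other strand, and matches overlap in Isg15. The windows are chr19:34583353-34583528 (plus strand) for Ifit3, chr19:34640765-34640888 (plus) for Ifit1, chr4:156200819-156200916 (minus) for Isg15, chr5:92348890-92349122 (minus) for Cxcl10, chr3:142620584-142620662 (plus) for Gbp2, chr3:142496749-142496933 (plus) for Gbp5 and chr3:142594690-142594846 (plus) for Gbp2b.
Ifit3: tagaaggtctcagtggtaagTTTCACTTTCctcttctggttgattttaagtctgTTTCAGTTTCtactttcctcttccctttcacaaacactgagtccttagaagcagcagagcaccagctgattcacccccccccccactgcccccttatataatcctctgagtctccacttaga
Ifit1: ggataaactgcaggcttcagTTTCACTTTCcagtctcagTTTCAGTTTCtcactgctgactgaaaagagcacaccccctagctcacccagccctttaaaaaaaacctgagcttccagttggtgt
Isg15: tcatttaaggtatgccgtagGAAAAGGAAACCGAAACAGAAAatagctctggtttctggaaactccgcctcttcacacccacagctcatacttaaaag
Cxcl10: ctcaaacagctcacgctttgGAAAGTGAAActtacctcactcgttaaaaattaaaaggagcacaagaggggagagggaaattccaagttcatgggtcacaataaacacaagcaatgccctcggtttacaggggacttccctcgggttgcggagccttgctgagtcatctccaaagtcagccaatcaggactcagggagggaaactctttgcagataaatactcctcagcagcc
Gbp2: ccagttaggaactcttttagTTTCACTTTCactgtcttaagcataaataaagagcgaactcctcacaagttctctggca
Gbp5: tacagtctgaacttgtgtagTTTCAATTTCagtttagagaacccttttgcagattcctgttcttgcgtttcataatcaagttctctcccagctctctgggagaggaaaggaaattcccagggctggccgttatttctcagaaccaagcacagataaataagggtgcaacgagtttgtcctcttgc
Gbp2b: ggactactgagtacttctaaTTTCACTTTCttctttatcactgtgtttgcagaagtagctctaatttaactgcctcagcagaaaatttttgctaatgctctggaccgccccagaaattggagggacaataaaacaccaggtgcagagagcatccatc
In windows of 250 bases before to 50 after the start, the motif was found in 392 of 9419 tested genes with a promoter in the table, or 4.16%. It was in 14 of 29 promoters of the interferon-stimulated genes and in 10 of 11 of the guanylate-binding proteins and related GTPases. Of the promoters of all genes lower in PWD, 5.98% held it, against 3.56% for genes higher and 3.17% for genes not called. Within the interferon-stimulated and GTPase lists, the 24 genes whose promoter held the motif had a median log2 difference of -1.43, and 22 were lower in PWD. The 16 whose promoter did not hold it also had -1.43, and 14 were lower. Whether the motif bears on these differences was not tested. A match describes the reference sequence alone, and PWD promoter sequences were not analysed here.

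**Figure D3:**
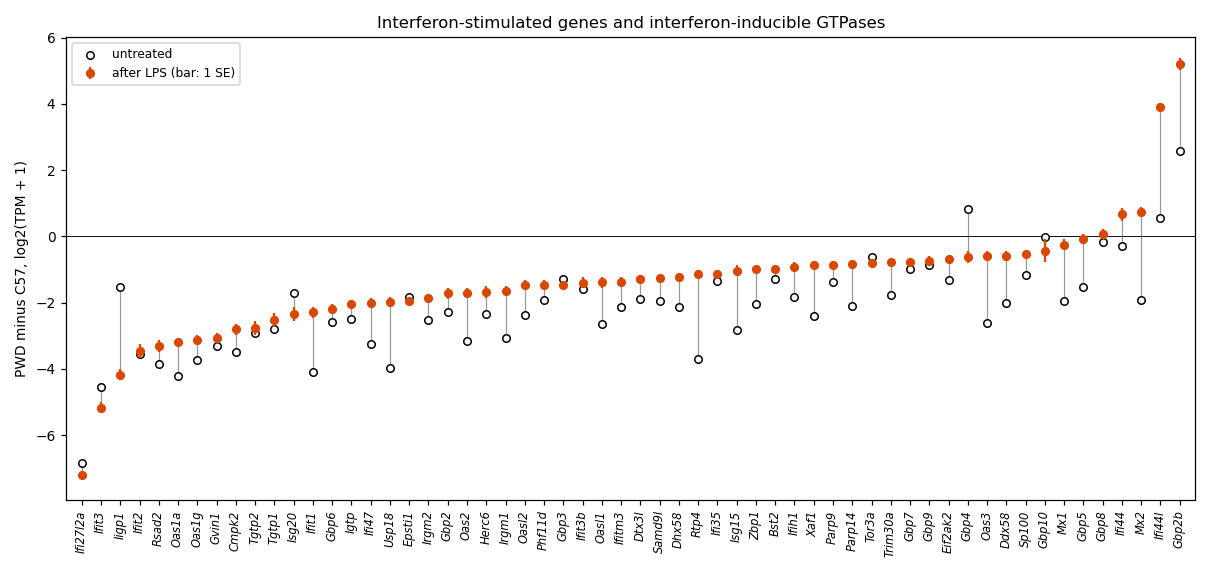
Log2 difference between PWD and C57, on the scale log2(TPM + 1), for the tested interferon-stimulated genes and interferon-inducible GTPases, in order of the difference after LPS. Filled points give it after LPS with a bar of 1 SE and open points without treatment. Most filled points lie below 0 but above the open point of the same gene, as for Ifit1 (-2.29 and -4.09), while Iigp1 (-4.17 and -1.53) lies further down after LPS.

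Interferon-inducible GTPases, which attack the vacuoles of intracellular microbes, were lower in PWD for 14 of 18 tested members, with a median of -1.68, and 1 was higher. Iigp1 was at 0.28, 0.553, 0.453 and 0.579 TPM in PWD and 23.8, 25.9, 27.8 and 23.9 TPM in C57, and its log2 difference was -4.17 (SE 0.16, adjusted p = 4.8e-18). Gvin1, Tgtp2, Igtp and Gbp2 were lower too (-3.08, -2.77, -2.05 and -1.72). Gbp5, which assists inflammasome activation, was at 148, 201, 208 and 196 TPM in PWD and 179.9, 200.4, 214 and 197 TPM in C57; the groups overlapped and it was not called (adjusted p = 0.687). Gbp2b, also named Gbp1 and located beside Gbp2 (chr3:142594847-142619179), was the one member higher in PWD, at 58.9, 73.5, 75.9 and 67.1 TPM against 0.769, 0.671, 1.28 and 0.873 TPM (5.21, SE 0.17, adjusted p = 1.22e-19). Members of this family are close in sequence, so reads may have been shared out between them.

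The same picture of many members lower and 1 far higher held in the Ifi200 family of interferon-inducible DNA-binding proteins, a cluster on chromosome 1. All 12 tested members were called, 11 lower in PWD and 1 higher, with a median of -2.53. Ifi206 was at 0.33, 0.285, 0.363 and 0.25 TPM in PWD and 62.8, 66.7, 74.9 and 71.6 TPM in C57 (-5.74), Ifi205 at 5.74 to 8.32 against 201 to 247 TPM (-4.83), and the DNA sensor Aim2 at 32.5 to 46.7 against 102 to 113 TPM (-1.37). Ifi202b, whose protein lacks the pyrin domain of its relatives (chr1:173962568-173982744), went the opposite way with the largest positive difference among the genes named by rule: 369, 414, 371 and 361 TPM in PWD and 0.699, 1.46, 1.07 and 0.791 TPM in C57. That is a ratio of means of 376.7 and a log2 difference of 7.58 (SE 0.16, adjusted p = 3.7e-24). These genes are duplicated and differ in copy number between mouse strains, so single members are uncertain, but the summed level of the family was also lower, at 681.5 to 820.3 TPM in PWD and 1628 to 1874 TPM in C57. Of 11 Schlafen and Sp100 family genes, 8 were lower in PWD, such as Slfn1 (-1.50) and Slfn4 (-1.26), and 2 higher, among them Sp140, a nuclear body protein that restrains interferon transcripts, at 45.2, 58.4, 62.7 and 60.3 TPM against 11.8, 10.6, 7.57 and 11.4 TPM (2.35).

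MHC class I presentation was lower in PWD for 19 of 22 tested genes and higher for none, with a median of -0.86. The classical heavy chains were at 252, 265, 254 and 259 TPM in PWD against 578, 565, 627 and 603 TPM in C57 for H2-K1 (-1.20) and 182 to 217 against 504 to 634 TPM for H2-D1 (-1.48). Lower as well were the non-classical H2-T22 (-3.43), H2-Q6 (-2.70) and H2-Q7 (-2.14), the class I transactivator Nlrc5 (-1.57), the peptide transporter Tap1 (-1.38) and the immunoproteasome subunit Psmb8 (-1.10). Their common light chain B2m had 1406 to 1604 TPM against 1830 to 2159 TPM (-0.38, adjusted p = 0.000631), and was not called with quantile normalization (-0.08). The heavy chains are highly polymorphic, and how much of their differences comes from the mapping to one reference was not tested.

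MHC class II presentation was mixed, with 5 of 16 genes higher in PWD, 8 lower and 3 not called. The heterodimer H2-Aa and H2-Ab1 was higher, with H2-Aa at 745, 932, 1152 and 1065 TPM in PWD and 516, 659, 565 and 563 TPM in C57 (0.74, adjusted p = 0.00068) and H2-Ab1 higher by 0.58, which was 0.39 in mice 1 and 2 alone. Their chaperone Cd74 (0.76) and their master regulator Ciita (0.81) were higher too, and no library of these 4 genes overlapped. H2-Eb1, the beta chain of the other heterodimer, stood at 51.3, 61.1, 84.3 and 67.2 TPM in PWD and 421, 512, 446 and 463 TPM in C57, a log2 difference of -2.80 (SE 0.19, adjusted p = 1.25e-11). As with class I, the part of mapping to one reference in the differences of these chains was not tested. The protease genes Lgmn (-1.52) and Ctss (-0.85), which trim antigens and Cd74, and the H2-DM inhibitor chain H2-Oa (-1.27) were lower.

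Co-stimulation and maturation genes divided into 9 higher, 7 lower and 7 not called of 23. Tnfrsf9, the receptor 4-1BB, was at 4.07, 3.65, 3.98 and 3.08 TPM in PWD and 50.3, 71.7, 55.7 and 47.7 TPM in C57, a difference of -3.60 (SE 0.21, adjusted p = 2.15e-12). Cd40, through which T cells license dendritic cells, was lower at 62.8, 92.4, 91.5 and 89.9 against 135, 152, 153 and 148 TPM (-0.81), and so were the T cell ligands Cd86 (-0.64), Cd274 (-0.62) and Pdcd1lg2 (-1.55). Cd80, the relative of Cd86, was at 32.6 to 48 and 47.4 to 49.7 TPM and was not called (adjusted p = 0.201), although in mice 1 and 2 alone it was called lower (-0.41). The maturation marker Cd83 (0.76), the ICOS ligand Icosl (0.90), Cd200 (0.80) and the death receptor Fas, at 138 to 151 TPM against 49.5 to 67.2 TPM (1.27), were higher in PWD.

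The LPS receptor Tlr4 and its co-receptor Cd14 differed in opposite directions. Tlr4 (chr4:66827584-66930284) was lower in PWD, at 53.1, 53.8, 51.1 and 50.3 TPM against 91.7, 84.7, 98.3 and 97 TPM, with a log2 difference of -0.82 (SE 0.10, adjusted p = 1.14e-07), and Cd14 was higher, at 1130, 1185, 1220 and 1152 TPM against 524, 589, 652 and 637 TPM (0.97, SE 0.10, adjusted p = 2.06e-09). Neither gene's libraries overlapped. Myd88 was slightly lower (-0.52), as was the kinase Tbk1 of the interferon branch (-1.19). Toll-like receptors of the endosome were lower in several cases: Tlr3, the sensor of double-stranded RNA, was at 0.835, 0.239, 0.301 and 0.337 TPM in PWD and 16.9, 18.9, 21.4 and 17.7 TPM in C57 (-3.80), and Tlr13 and Tlr9, sensors of bacterial RNA and of CpG DNA, differed by -2.32 and -1.49. The endosomal Tlr8 was higher (1.33), as were the lipopeptide receptors of the cell surface Tlr1, at 25.8 to 32 TPM against 6.35 to 10.4 TPM (1.70), Tlr2 (0.51) and Tlr6 (0.62). Over the whole list of 30, 10 were higher, 12 lower and 8 not called, with a median of 0.00.

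NF-kB subunits and negative regulators showed 8 of 30 higher, 12 lower and 10 not called, a median of -0.03 whose sign changed with the scaling; without PWD_LPS replicate 1 the count lower was 7. Tnfaip3, the ubiquitin editor A20 that shuts off NF-kB, was higher in PWD (264 to 285 against 165 to 192 TPM, 0.61), as was the co-factor Nfkbiz (0.62). The phosphatase genes of MAP kinases parted, with Dusp4 higher (0.90) and Dusp5 lower (-1.80). Rnf128 was lower (-2.08), and Il1rl1, the receptor of IL-33, was higher (1.49).

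Nitric oxide, arginine and lipid mediator genes included 13 lower and 6 higher of 25. Nos2, the inducible nitric oxide synthase (chr11:78920787-78960254), was at 12.2, 14.3, 16.6 and 15.7 TPM in PWD and 58.7, 81.6, 77.4 and 68.8 TPM in C57. All PWD libraries were below all C57 libraries, with a log2 difference of -2.21 (SE 0.12, adjusted p = 1.08e-14). Ass1, which remakes arginine for this enzyme, was lower too (146 to 194 against 622 to 777 TPM, -2.03). Arg2, a mitochondrial enzyme that breaks down arginine, was higher at 127, 134, 134 and 126 TPM against 33.3, 33.8, 38.2 and 41.2 TPM (1.81), as was the arginine transporter Slc7a2 (0.87). Arg1 had 62.4, 40.6, 43.9 and 33.2 TPM in PWD and 37.4, 32.4, 78.3 and 38 TPM in C57, overlapped and was not called (adjusted p = 0.986). Acod1, which makes itaconate, was moderately lower (-0.60). The prostaglandin enzymes Ptgs2, at 120.1, 136, 129 and 141 TPM in PWD and 394, 425, 432 and 463 TPM in C57 (-1.70), and Ptges (-1.30) were lower, as were the leukotriene helper Alox5ap (-1.52) and the histamine enzyme Hdc (-2.27). Alox15, a lipoxygenase of macrophages and eosinophils, stood out in the opposite direction, at 27.9, 28.5, 37.4 and 47.1 TPM against 0.541, 0.657, 1.24 and 3.11 TPM (4.01, SE 0.30, adjusted p = 2.36e-10).

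Inflammasome and lytic cell death genes were lower in PWD for 12 of 25 and higher for 5. The bacterial protein sensors Naip2, at 10.3, 10.5, 9.92 and 8.76 TPM against 70.4, 67.1, 81.5 and 79.5 TPM (-2.79), and Naip6 (-2.17) belong to a duplicated family whose members may share reads. Pycard, the adaptor ASC, was at 20.4 to 33.8 TPM in PWD and 78.8 to 112 TPM in C57 (-1.69), and Casp1 (-1.24), Mlkl, the effector of necroptosis (-1.69), and the pore protein gene Gsdmd (-0.59) were lower as well. The substrates of caspase-1, Il1b and Il18, were thus higher in PWD while the transcripts of this enzyme and its adaptor were lower.

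Genes of oxidant defence and iron were divided. Of 25 oxidant defence genes 8 were higher and 11 lower, and the glutathione synthesis subunits Gclm (68.1 to 90.1 against 251 to 309 TPM, -1.83) and Gclc (-1.34) and the haem-degrading enzyme Hmox1 (-1.19) were lower in PWD. Nnt, a mitochondrial source of NADPH that is partly deleted in the C57BL/6J substrain, was at 19.3, 19.1, 16.8 and 17.6 TPM in PWD and 4.34, 3.84, 5.88 and 5.47 TPM in C57 (1.72, SE 0.13, adjusted p = 1e-11), and at 2.7 ± 0.574 TPM (SD, n = 4) in B6 after LPS. The ferritin chains went apart: Fth1 was higher in PWD, at 21163 to 22089 TPM against 11350 to 13877 TPM (0.78), and Ftl1 lower, at 1872 to 2007 against 5094 to 6404 TPM (-1.57). Both have many processed pseudogenes, which may take up reads. Hamp, the iron hormone hepcidin, was at 0.381, 0.316, 0 and 0.332 TPM in PWD and 13.3, 22.6, 35.9 and 16.3 TPM in C57 (-4.11), and the iron exporter Slc40a1, on which hepcidin acts, was lower (-1.45).

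Secreted antimicrobial and acute-phase proteins held the largest differences named by rule. Chil3, the chitinase-like protein Ym1 (chr3:106147554-106167564), was at 0.736, 0.567, 1.07 and 0.43 TPM in PWD and 706, 401, 880.2 and 738 TPM in C57, a log2 difference of -8.60 (SE 0.22, adjusted p = 7.49e-19). Ptx3, a pentraxin that opsonises microbes (chr3:66219910-66225805), was at 2.17, 0.757, 1.5 and 1.35 TPM against 703, 768, 877 and 854 TPM (-8.38, SE 0.14, adjusted p = 3.55e-25). Both were abundant in C57 and close to absent in PWD. The related Chil1 was the reverse, at 292, 299, 345 and 349.8 TPM in PWD and 17, 9.82, 17.4 and 21.1 TPM in C57 (4.26). Lyz1, the Paneth cell lysozyme (chr10:117287797-117292868), was at 181, 125, 143 and 98.6 TPM in PWD and 1.55, 0.931, 2.03 and 1.04 TPM in C57 (5.84), whereas Lyz2, the macrophage lysozyme, was lower in PWD (3518 to 3822 against 6231 to 8950 TPM). The lysozymes are near-identical neighbours, and summed they were at 3699 to 3965 TPM in PWD and 6232 to 8952 TPM in C57. Saa3 (1.86), the siderophore binder Lcn2 (0.91) and the cathelicidin Camp (3.21) were higher. S100a8 was lower, at 106, 137, 129.8 and 168 TPM against 1116, 842, 1251 and 1454 TPM (-3.09), while S100a9, with which it forms calprotectin, was at 581, 778, 816 and 921 and 817, 544, 981 and 1167 TPM and was not called (adjusted p = 0.587).

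Complement genes were lower in PWD for 10 of 17 and higher for 3. The 3 chains of C1q stood at 2.83 to 3.49 against 29.1 to 43.4 TPM for C1qa, 6.01 to 7.86 against 114 to 145 TPM for C1qb and 4.26 to 5.01 against 44.9 to 63.7 TPM for C1qc, with log2 differences of -3.00, -3.95 and -3.20. The C1q genes, like Fcgr1, Ccr2 and Lyz2, are also among the macrophage markers, which were lower in PWD in their sum, and the part of macrophage number in these differences was not tested. Among uptake receptors 14 of 25 were lower, with Clec12a (-3.50), Fcgr1 (-2.91), Clec10a (-2.26) and Clec4n (-1.91) at the head, and 7 higher; with mice 1 and 2 alone 9 were lower. Fcgr1, the high-affinity IgG receptor, was at 7.92, 11.1, 12.4 and 9.51 TPM in PWD and 75.1, 83.8, 86.1 and 84.9 TPM in C57. Another activating IgG receptor, Fcgr4, was higher, at 30.3, 27.9, 24.8 and 21.5 TPM against 6.58, 5.62, 9.17 and 8.36 TPM (1.70). Marco, a scavenger receptor, was at 161, 142, 202 and 212 TPM and 102, 81.2, 124 and 109 TPM, which do not overlap, but missed the threshold (adjusted p = 0.0535), and it was called when only the 4 groups compared were fitted.

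Of 18 genes of the liver X receptor programme and lipid handling, 10 were higher in PWD and 2 lower, with a median of 0.38. In mice 3 and 4 alone the count was 8 higher and 4 lower with a median of 0.15, and in mice 1 and 2 alone 10 and 2 with a median of 0.54. Pparg was at 27.3, 29.5, 25 and 29.2 TPM against 6.57, 6.14, 12.8 and 10.4 TPM (1.58), Nr1h3, which encodes the liver X receptor alpha, at 23.6 to 27 against 7.37 to 10.2 TPM (1.45), and the cholesterol exporter Abca1 at 62.6 to 66.2 against 23.5 to 28.7 TPM (1.32). Apoe (1.57), the desaturase Scd1 (1.46) and the fatty acid carrier Fabp4 (1.32) were higher too. Cholesterol synthesis and uptake had 9 of 23 higher and 5 lower, a called share of 60.9% near that of all genes. The late enzyme Dhcr7 (0.95) was higher, and the early enzyme Hmgcs1 (-0.52) lower.

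Glycolysis and hypoxia genes were lower for 11 of 22 and higher for 2, and with mice 3 and 4 alone none was higher. Gapdh was at 639, 645, 668 and 603 TPM in PWD and 1639, 1568, 2266 and 2074 TPM in C57 (-1.54), although this gene has many pseudogenes, and Hk3 (-1.28) and Bnip3 (-1.47) were lower. Eno1b was at 144, 156, 165 and 156 TPM in PWD against 8.89, 4.6, 9.22 and 6.85 TPM in C57 and the near-identical Eno1 at 404 to 436 against 487 to 706 TPM. Their sums were 559.3 to 583.7 TPM in PWD and 492 to 714.9 TPM in C57, which overlap. The list of nuclear genes of oxidative phosphorylation, which also holds Nnt, was called at 40%, below the share of all genes. In the cell cycle list 14 of 30 were lower and 5 higher, but the split was 7 lower and 8 higher in mice 1 and 2 and 18 lower and 2 higher in mice 3 and 4, and without PWD_LPS replicate 1 the number higher was 3. The D-type cyclins went opposite ways in both pairs of mice: Ccnd1 was at 4.02, 4.1, 4.73 and 3.63 TPM in PWD and 26, 27.5, 30.0 and 25.9 TPM in C57 (-2.47), and Ccnd2 at 427, 471, 520.1 and 482 TPM against 153, 179, 193 and 172 TPM (1.44).

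Matrix proteases, their inhibitors and related genes were lower in PWD for 15 of 24 and higher for 7, with a median of -0.77. Thbs1, the matrix glycoprotein thrombospondin-1, was at 168, 147, 179 and 149 TPM in PWD and 1286, 1486, 1342 and 1298 TPM in C57 (-3.07, SE 0.13, adjusted p = 3.62e-17). The proteases Adam8 (-2.07), Mmp8 (-1.92) and Mmp9 (-1.45) were lower, and the protease inhibitor Timp1, at 90.3, 106, 132 and 137 TPM against 18.6, 21.6, 30.8 and 23.8 TPM (2.25), higher, while the inhibitor Timp2 was lower (-0.88). Outside this list, several surface and matrix genes were expressed in PWD and scarcely in C57. Itgb3, the integrin beta chain of the vitronectin receptor (chr11:104608000-104670476), was at 75.7, 70.9, 68.8 and 65.6 TPM in PWD and 2.49, 2.63, 3.2 and 3.31 TPM in C57 (4.19, SE 0.10, adjusted p = 2.16e-22). The crosslinking enzymes Lox, at 100.2 to 117 against 4.38 to 7.26 TPM, and Loxl2, at 20.7 to 24 against 0.175 to 1.09 TPM, the hyaluronan synthase Has1, at 21.6 to 26 against 0.583 to 0.946 TPM, and the acid phosphatase Acp5, at 604 to 661 against 34.5 to 49.1 TPM, followed the same direction. So did the keratin Krt6b, at 32.7, 34, 36.6 and 33.2 TPM against 0.0367, 0.178, 0.15 and 0 TPM, the water and glycerol channel Aqp3, at 106 to 155 against 0.663 to 1.21 TPM, and the oxidase Cyp1b1, at 48.1 to 71.1 against 0.243 to 0.555 TPM. The protease inhibitor gene Stfa1 of the stefin family, at 89.5 to 115 against 0.358 to 1.34 TPM, and Cystm1, at 96.9 to 110.1 against 3.24 to 4.19 TPM, were also among the largest differences towards PWD, and the kallikrein gene Klk1b11, at 0 to 0.124 against 80.4 to 112 TPM, among those towards C57.

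Markers of other cells differed as well. Of 13 tested eosinophil, mast cell and basophil markers 9 were higher in PWD and 4 lower, with a median of 1.54, and their summed level was 743.5 to 1015 TPM in PWD and 253.6 to 362 TPM in C57. Those higher were genes expressed in eosinophils: the granule proteins Prg2, at 166, 145, 63 and 106 TPM against 4.1, 0.821, 3.64 and 7.76 TPM (4.69), Epx, at 27.6, 28.9, 17.2 and 23.6 TPM against 0.21, 0.104, 0.552 and 0.698 TPM (4.18), and the ribonucleases Ear1 (4.19), Ear6 (1.86) and Ear2 (1.03), with Siglecf (1.54), Ccr3, Prg3 and the transcription factor Gata1. Reads may be shared out between these ribonucleases. Summed, they were at 630 to 786 TPM in PWD and 241 to 337 TPM in C57 (log2 difference 1.30). The 4 lower members were Cpa3, Mcpt8, Gata2 and Kit (-0.80). The mast cell proteases Mcpt4 and Cma1 were listed at 0 in all 8 libraries, and the count of lower members was 1 without C57_LPS replicate 3 or PWD_LPS replicate 2 and 2 without C57_LPS replicate 4 or PWD_LPS replicate 1. Alox15 and the eosinophil attractant Ccl24, named above, were also higher in PWD. The part of eosinophil RNA in those differences was not tested. From untreated to LPS the strain difference of Ccl24 changed by -2.03 (adjusted p = 0.000597 by limma). For Prg2, Epx, Ear1, Siglecf and Alox15 that change was not called. Of 17 neutrophil markers 4 were higher and 7 lower. With mice 1 and 2 alone 5 were higher and 4 lower, and with mice 3 and 4 alone 4 and 9. All 7 tested B cell and plasmacytoid dendritic cell markers were lower in PWD, and Siglech was at 0 in PWD and at most 0.411 TPM in C57. Stromal genes were faint, with Col1a1 at 2.47 to 4.31 TPM in PWD and 0.326 to 1.77 TPM in C57 (1.33), and 5 of 7 tested were higher.

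A set of genes was present in one strain and nearly absent in the other, by the rule of under 0.1 TPM in all 4 LPS libraries of one and 5 TPM or more in all 4 of the other. In PWD 5 genes were nearly absent. The interferon-induced Ifi27l2a was listed at 0 in all PWD libraries and at 152, 153, 142 and 140.0 TPM in C57, the neuropeptide gene Npy was listed at 0 against 10.1 to 17.8 TPM, and Trim12a, Apol9b and Vill were at most 0.0587 TPM in PWD. In C57 9 genes were nearly absent. Among them, the integrin chain Itgad was at 10.8 to 12.7 TPM in PWD and the receptor gene Cd300ld2 at 7.66 to 14 TPM, and the protease inhibitors Serpinb9f and Serpinb9g at 5.2 to 6.23 and 16.7 to 20.1 TPM, and Krt6a, Zfp990, C1ql2 and Ifi44l met the rule too. Some of these belong to expanded families. Bcl2a1a, a survival gene of the Bcl2 family, was at 0 to 1.39 TPM in PWD and 249 to 280.2 TPM in C57, but its relatives Bcl2a1b and Bcl2a1d were at 745 to 849.7 and 553 to 590.3 TPM in PWD and were not called. The family's sum was 1322 to 1429 TPM in PWD and 1652 to 1806 TPM in C57, so the large difference of 1 copy shrank to a log2 ratio of -0.32 for the sum. For Serpinb9, Serpinb9b, Serpinb9f and Serpinb9g together the sum was 38.1 to 42.8 TPM in PWD and 55.9 to 71.2 TPM in C57, the reverse of the single genes Serpinb9f and Serpinb9g.

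Much of what separated the strains after LPS also separated them without it, where 6126 genes (46.2%) were called. The balance of the untreated calls differed between the pairs of mice. With mice 1 and 2 alone 1724 were higher in PWD and 4719 lower, and with mice 3 and 4 alone 3565 and 1982. The overlaps given next are from all libraries. Of the 3236 genes higher in PWD after LPS, 2101 were also called higher untreated and 43 lower, and of the 3943 lower after LPS, 2706 were also lower untreated and 35 higher. The LPS and untreated libraries of a strain come from its 4 mice, so these comparisons are not independent, and the sources used here do not state which numbers share a mouse. Whether a gene's strain difference itself changed with LPS was tested as a difference of differences, which called 1510 genes (11.4%), 717 with a more positive and 793 with a more negative difference after LPS. In mice 1 and 2 alone this split was 2087 and 291, and in mice 3 and 4 alone 270 and 1982, where the median over all genes was 0.26 and -0.25, so small values of this contrast depend on which pair of libraries was used. The pairs also differ in sex and in structural RNA. In PWD_Untreated, structural RNA was 41.9% and 40.3% of TPM in replicates 1 and 2, and 29.3% and 28.8% in replicates 3 and 4. The parts of sex, structural RNA and single mice in this split were not tested. The genes given below as changed kept their direction in both pairs.

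**Figure D4:**
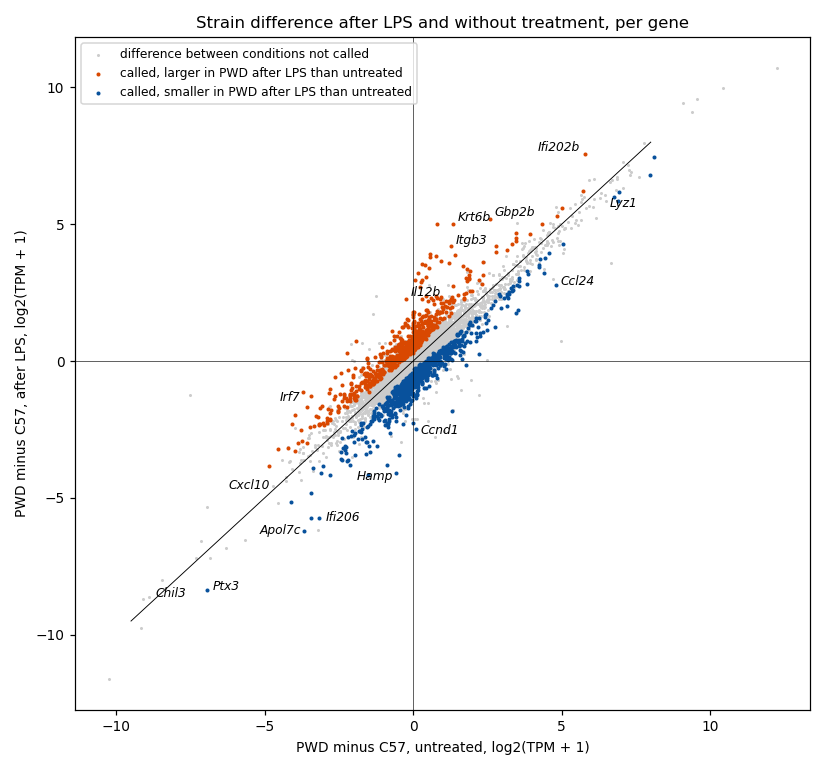
Log2 difference between PWD and C57 without treatment (horizontal) and after LPS (vertical) for the 13246 genes tested, on the scale log2(TPM + 1), with the line of equal differences. Coloured points are the 1510 genes whose difference itself changed. Chil3 and Cxcl10 lie near the line, Il12b, Itgb3 and Krt6b above it, and Hamp and Ccnd1 below it.

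Il12b was not called without LPS, with a strain difference of -0.22, and its difference grew with LPS by 2.49 (SE 0.33, adjusted p = 1.68e-05). That of Il33 grew by 1.06. Il23a grew by 1.40, but with 0.1 TPM added in place of 1 its change was 0.30 and not called (adjusted p = 0.759). For Il6, Il1b and Cxcl3 the change was 0.01, -0.03 and 0.00 and was not called. The largest shifts towards PWD by the naming rule were in Krt6b (3.65), Ifi44l (3.34), Csrp3 (3.27), Has1 (3.21), Loxl2 (3.09) and Itgb3 (2.92). Those away from PWD were in Hamp (-3.52), Apol9b (-2.95), Iigp1 (-2.64), Ifi206 (-2.58), Ccnd1 (-2.57) and Apol7c (-2.54). The size of these values depends on the 1 TPM added, since with 0.1 TPM the change was -1.32 for Iigp1, -1.63 for Ifi206 and -1.67 for Apol7c, and 5.14 for Csrp3, all still called. Ccnd1 was at 34.4, 39.1, 49.9 and 46.7 TPM in untreated PWD cells and 39.4, 42, 37.5 and 38.3 TPM in untreated C57 cells, which overlap, while after LPS they did not. Ptgs2, Hdc, Tlr13 and Ccl2 likewise took a more negative difference (-1.51, -2.26, -1.97 and -1.60). Interferon-stimulated genes shifted the other way: 26 of 40 had a called shift towards PWD after LPS and none away from it, against 5.41% and 5.99% of all genes. Of these 26, 25 had a negative difference without treatment. The median of the list was -2.08 untreated and -1.24 after LPS, and the median LPS response was 2.95 in PWD and 1.74 in C57. Ifit1 rose from 4.33 to 171 TPM in PWD and from 92.9 to 836 TPM in C57 (group means). Cholesterol synthesis shifted away from PWD, with 12 of 23 called more negative and 1 more positive, such as Hmgcs1 (-1.18); without treatment 18 of them were higher in PWD and none lower.

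Some genes were called in opposite directions in the 2 conditions, and those named here were chosen after their values were seen. The calcium channel subunit gene Cacnb3 (-0.71 untreated and 1.11 after LPS), Dusp4 (-0.65 and 0.90), the signalling adaptor Traf1 (-0.61 and 0.53), the adhesion molecule Icam1 (-0.51 and 0.40) and Batf3 (-0.40 and 0.69) turned from lower to higher in PWD. Gda (0.44 and -0.98), Cytip (0.35 and -0.97) and the cholesterol enzymes Idi1 (0.47 and -0.63) and Msmo1 (0.50 and -0.44) turned from higher to lower.

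Set beside the B6 libraries after LPS, which share the PWD libraries and so give no separate test, some of these differences were matched and others were not; the genes here were chosen after their values were seen. Against B6, 9091 genes (68.6%) were called, with 6580 higher in PWD and 2511 lower. The median difference over all genes was 0.28 on the TPM scale. With median-of-ratios scaling, chosen after seeing the data, 4724 were higher and 4519 lower with a median of 0.02. Il12b was at 289.6 ± 105 TPM in B6 (SD, n = 4), near the 229.8 TPM of C57, and Cxcl10 at 2165 ± 259.8 TPM, near the 2103 TPM of C57. Ifi202b was at 1.09 TPM in B6 and Chil3 at 487 TPM, again on the side of C57. Ccl2 was at 416 ± 14.2 TPM in B6, between PWD and C57. Tlr4 was at 54.6, 47.5, 62.2 and 50.0 TPM in B6, a range that covers the 50.3 to 53.8 TPM of PWD, and all lie below the C57 libraries. With median-of-ratios scaling, however, Tlr4 was at 67.5 to 83.3 in B6 and 54.3 to 60 in PWD, and was lower in PWD by limma (log2 difference -0.37, adjusted p = 0.000204). By mean TPM, Sp140 (200.0 TPM in B6), Ciita (51.6), Ccnd2 (669) and Apoe (75.1) were higher in B6 than in PWD although PWD was above C57. Of the MHC class II list, 5 were higher in PWD against C57 and none against B6, where 14 of 16 were lower, and 15 with that scaling. Of the cell cycle list, 5 were higher against C57 and 25 of 30 against B6, or 24 with that scaling.

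**Figure D5:**
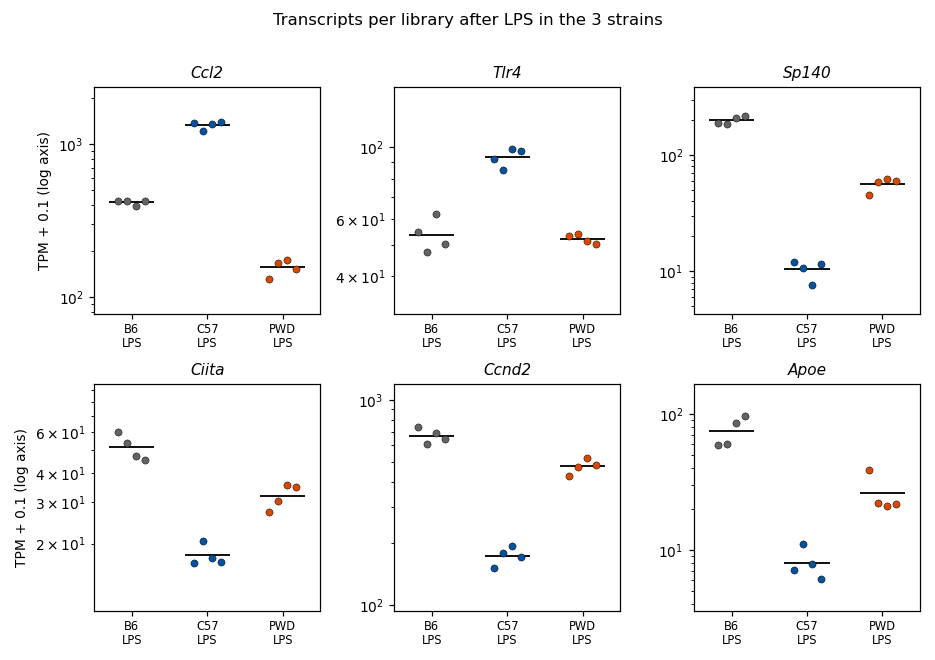
TPM plus 0.1 on a log axis in the 4 B6, 4 C57 and 4 PWD libraries after LPS for 6 transcripts chosen after their values were seen, with each point a library and each bar a group mean. As TPM, the B6 and PWD points of Tlr4 share a range below C57, for Ccl2 the B6 points lie between the other strains, and for Sp140, Ciita, Ccnd2 and Apoe the order of the means from high to low is B6, PWD, C57.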

How the data were processed

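Bulk RNA-seq of bone marrow-derived dendritic cells gave 24 libraries in 6 groups of 4, and the comparison used PWD_LPS and C57_LPS, with PWD_Untreated, C57_Untreated and B6_LPS beside them. The authors deposited a table of TPM per gene symbol; STAR, edgeR and the build mm10 are named in the submitters' processing notes, without versions, and the annotation, the counting and the calculation of TPM were not given in the sources used here. Per the labels' protocols, RNA was taken with a column kit and made into stranded libraries. TPM keeps no depth, so the depth of each library is unknown and no counting interval is given.

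Of 55401 rows, 110 repeated symbols were summed, leaving 55291, and 13246 genes that reached 1 TPM in 4 or more libraries entered the tests. On the scale log2(TPM + 1), limma 3.58.1 (R 4.3.3) estimated the means of all 6 groups in a single model of the 24 libraries, which leaves 18 residual degrees of freedom, and moderated the variances by empirical Bayes with its trend and robust options. All tests are two-sided, with Benjamini-Hochberg adjustment over all genes tested and a call at an adjusted p under 0.05, for PWD against C57 after LPS, without treatment, and for the difference of these differences. The fit was tested on simulated data. Coordinates are from GENCODE M21 (mm10), in which 12977 of the tested symbols were found.

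Genes are named by rule: the 12 largest called differences in each direction at 10 TPM or more without overlap, 10 fixed genes, up to 4 called members of each list at 5 TPM or more, the 6 largest changes of the difference each way, and genes nearly absent in 1 strain. Other members of the lists are named to show a group, and were chosen after their values were seen. Some members of the rule and lists are not reported here. The members and lists were chosen with earlier results of these data known. No pair of libraries held identical values. Each group holds cultures of 4 mice, so p-values measure the spread between cultures. Alternatives were other pseudocounts, filters, scalings and moderation, a minimum difference of 1, a replicate block, each pair of mice alone and each library left out. The mouse as a block, and median-of-ratios scaling for PWD against B6, were added after seeing the data.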

Additional observations from a re-analysis of the deposited data

Results flagged for a closer look

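Of 493 groups of 4 values looked at, 14 held 1 library whose gap to the rest took most of the group's range by Dixon's criterion, and chance marks about 1 group in 20. In PWD_LPS replicate 1 the lowest values were Tnf at 585 TPM (680.0 to 695 in the others), Cd40 at 62.8 TPM (89.9 to 92.4), Lgmn at 23.7 TPM (27.9 to 28.7) and Cystm1 at 96.9 TPM (108 to 110), and the highest was Apoe at 38.9 TPM (20.8 to 22.2). PWD_LPS replicate 4 was lowest for Ccr1 at 46.5 TPM (50.8 to 51.4) and Abca1 at 62.6 TPM (65.7 to 66.2). C57_LPS replicate 2 was highest for Ccr7 at 200 TPM (137 to 144), Cd83 at 48.1 TPM (39.2 to 39.5) and C1qa at 43.4 TPM (29.1 to 29.8). C57_LPS replicate 1 was lowest for Oas1g at 43.9 TPM (49.5 to 50.3) and H2-T22 at 96.7 TPM (105 to 107). C57_LPS replicate 3 was highest for Arg1 at 78.3 TPM (32.4 to 38) and Npy at 17.8 TPM (10.1 to 11.4). For the called genes among these, leaving out the library kept the call.

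The strain difference itself changed with LPS for 12 genes named by rule, tested with limma as the difference of differences. It became more positive for Krt6b (3.65), Ifi44l (3.34), Csrp3 (3.27), Has1 (3.21), Loxl2 (3.09) and Itgb3 (2.92), with adjusted p from 1.27e-14 to 6.91e-11. It became more negative for Hamp (-3.52), Apol9b (-2.95), Iigp1 (-2.64), Ifi206 (-2.58), Ccnd1 (-2.57) and Apol7c (-2.54), with adjusted p from 2.26e-12 to 1.23e-08. All 12 were called in the same direction in mice 1 and 2 alone and in mice 3 and 4 alone. With 0.1 TPM added in place of 1, all 12 were still called, with smaller changes for Iigp1 (-1.32), Ifi206 (-1.63) and Apol7c (-1.67) and a larger one for Csrp3 (5.14).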

How the results depend on the processing

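For the strain difference after LPS, a minimum log2 difference of 1 left 1930 of 7179 calls, and for the strain difference without treatment 1797 of 6126. For the strain difference after LPS minus strain difference without treatment, 1510 calls became 346 with that minimum, 2861 with median-of-ratios scaling, 2966 with quantile normalization, 2730 without structural RNA and 2378 with only mice 1 and 2; the cause was not tested. Leaving out each library in turn gave 6677 to 6923 calls after LPS, 5553 to 6042 without treatment and 1249 to 1621 for the difference. The share of calls higher in PWD after LPS was 45.1%, and 55.2% in mice 1 and 2, 35.2% in mice 3 and 4 and 51.6% with median-of-ratios scaling. With a replicate block the counts were 7169, 6093 and 1463. With the mouse as the block the count for the difference was 1542. That block takes the libraries of a strain with equal numbers as 1 mouse, which the sources used here do not state. For libraries of equal number, the deviations from their group means were correlated. They gave r of -0.0417 to 0.0864 between strains after LPS and 0.0861 to 0.176 between the LPS and untreated libraries of a strain. Unequal numbers were not compared, so these values cannot decide whether the numbers pair the libraries. Against B6, median-of-ratios scaling moved the share of calls higher in PWD from 72.4% to 51.1%. Of 272 genes examined singly, 258 were called and all 258 kept their direction under every alternative that tested them. The filter of 5 TPM tested 247 of these. Of the 258, 257 also stayed called wherever tested, the minimum of 1 aside, and B2m did not with quantile normalization (-0.08). Among the 14 not called, 4 changed sign: Tnf (0.0029 in mice 1 and 2), Gbp5 (0.0529 with quantile normalization; -0.1344 to 0.0275 without 1 library), Arg1 (-0.5036 in mice 3 and 4; -0.158 to 0.2851 without 1 library) and S100a9 (0.0119 in mice 1 and 2; -0.36 to 0.0096 without 1 library). Depth is unknown, so low values carry an error that these files do not show.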
